A study of Homo sapiens with 8 samples.

Results

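The E2F, pocket protein and FOXM1-MYBL2 regulators of the cell cycle were examined in HuCCT1 cells with and without knockdown of BEX2. The 10 genes were E2F1, E2F2, E2F3, E2F4, E2F7, E2F8, RBL1, RBL2, MYBL2 and FOXM1. They were taken by gene name, and the choice was made with earlier results of these data known. All 10 were among the 20450 genes tested, and the probe that stood for each was well above background on all 8 arrays. HuCCT1 is an established human line of intrahepatic cholangiocarcinoma. RNA was measured on 8 single-colour Agilent arrays, 2 for each of 4 short hairpin RNA vectors. The cells labelled control carried shControl or shNontarget, and the cells labelled BEX2 knockdown carried shBEX2-1 or shBEX2-2, so that every group carried a hairpin vector. The study describes a retroviral vector for the BEX2 hairpins and control cells with a hairpin against luciferase, and no source used here tells whether that was shControl or shNontarget. The target sequences that the methods list for the BEX2 hairpins are reverse complements of each other over nearly their whole length, so that, as listed, both address the same stretch of the transcript. Nothing says whether the arrays of 1 vector came from separate cultures, so the p-values measure the spread between these arrays, part of which may be technical. The main test counted the 2 arrays of each vector as separate samples, though each group held only 2 vectors. Its spread mixes the gap between vectors with the gap between arrays of 1 vector, and its p-values do not stand for 4 independent lines a group. A level below is the log2 intensity of a probe minus the 75th percentile of log2 intensity on its array, and it was never compared between probes.

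E2F factors bind the promoters of genes for DNA replication and for entry into S phase. E2F1, E2F2 and E2F3 are classed as activators, E2F4 works mainly as a repressor together with the pocket proteins, and E2F7 and E2F8 are atypical repressors that act without a DP partner and are themselves E2F targets. The pocket proteins p107, from RBL1, and p130, from RBL2, hold E2F sites silent. p130 with E2F4 and the MuvB core forms the DREAM complex of resting cells. In cycling cells the MuvB core instead joins B-MYB, from MYBL2, and then FOXM1, which drive genes of G2 and mitosis.

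BEX2 itself had levels of -3.36 and -3.91 with shControl and of -2.70 and -3.77 with shNontarget. Its levels were -5.21 and -5.54 with shBEX2-1 and -4.92 and -4.60 with shBEX2-2. All knockdown arrays were below all control arrays, by -1.63 ± 0.32 on the log2 scale (SE, 4 against 4 arrays, limma adjusted p = 0.012). The BEX2 probe was well above background on 6 of the 8 arrays. The shNontarget arrays stood apart, since their levels differed by more than 1 (log2) for 34.9% of the genes, against 0.557% to 1.76% for the other vectors. Of the 10 regulators, 8 were higher on shNontarget replicate 2 than on replicate 1. The 75th percentile of intensity was 667 to 838 on the control arrays and 441 to 631 on the knockdown arrays, and the control arrays filled the first row of the slide and the knockdown arrays the second, so that position and group cannot be told apart. Of 6 biliary epithelial markers, all were well above background on all arrays. KRT7, KRT19 and EPCAM did not pass the test, while KRT8 rose by 1.02 ± 0.22 (adjusted p = 0.017, limma), and KRT18 (0.46) and SOX9 (-0.38) did not pass although their groups did not overlap. The mean level of the 6 was 4.93 to 5.47 on the control arrays and 5.48 to 5.59 on the knockdown arrays. Markers of other cell types were detected in part. Of 4 hepatocyte markers, SERPINA1 was well above background on all arrays, APOA1 on 6, and ALB and TTR on none. Of 4 fibroblast and endothelial markers, COL1A1 and VWF were so on all arrays and COL3A1 and PECAM1 on none. Of 4 leukocyte markers, CD14 and CD79A were so on all arrays, PTPRC on 7 and CD3E on 3. Of the 7 tested genes in these lists only CD14 was called, with a rise of 0.54 ± 0.13 (adjusted p = 0.030, limma). The mean level of the 3 tested leukocyte markers was -1.66 to -1.34 on the control arrays and -1.27 to -1.18 on the knockdown arrays, and the part of KRT8, CD14 and these levels in the results below was not tested.

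Transcripts of 6 of the 10 regulators rose after BEX2 knockdown, and none fell. They were the activators E2F1 and E2F2, the atypical repressor E2F8, the pocket protein gene RBL1, MYBL2 and FOXM1, which rose by 2.60-fold (FOXM1) to 5.06-fold (E2F2). E2F3, E2F4, E2F7 and RBL2 did not pass the test. In all genes tested, 12.9% passed, and 6.68% passed with a rise. The median difference of the 10 regulators was 1.50 on the log2 scale, against 0.027 over all genes tested. The 4 knockdown arrays lay entirely above the 4 control arrays for these same 6 regulators, while the groups overlapped for the other 4. Over all genes, 22.1% had groups that did not overlap.

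**Figure D1:**
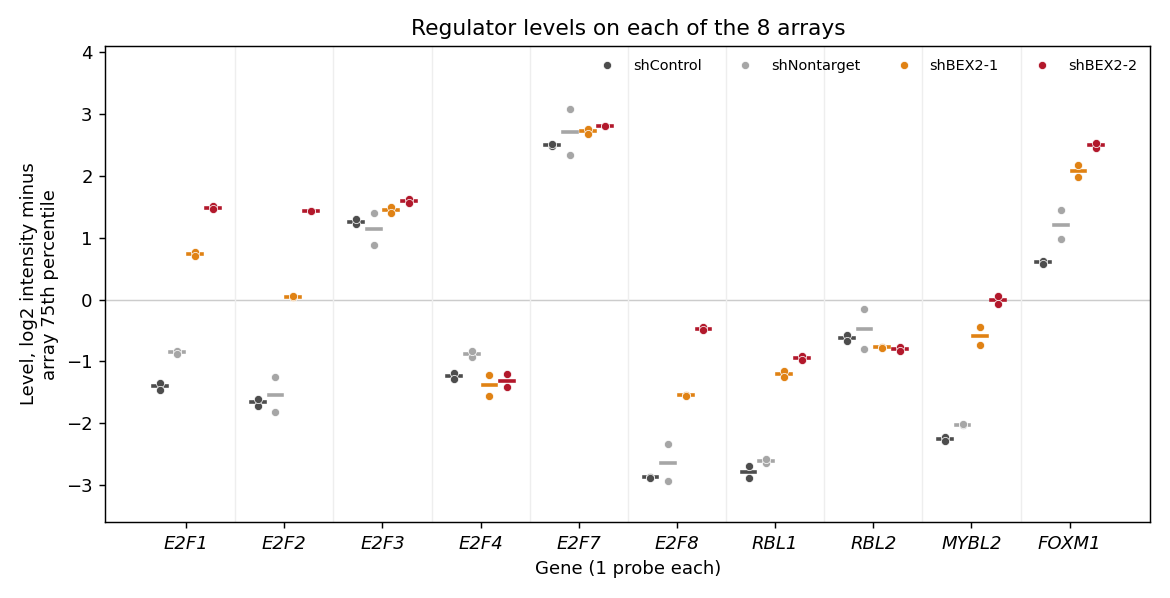
Levels of the 10 regulators on each array, as log2 intensity minus the array's 75th percentile. Points are the 2 arrays of a vector and bars are their means, and levels of different genes come from different probes and are not comparable. Both knockdown lines lie above all control arrays for E2F1, E2F2, E2F8, RBL1, MYBL2 and FOXM1, and the groups overlap for E2F3, E2F4, E2F7 and RBL2.

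E2F1 and E2F2 showed the largest differences of the group, and the third activator did not follow. E2F1 had levels of -1.35, -1.46, -0.83 and -0.88 on the control arrays (shControl first and then shNontarget, as in every list of control arrays below, with shBEX2-1 before shBEX2-2 in lists of knockdown arrays). Its levels were 0.77 and 0.70 with shBEX2-1 and 1.51 and 1.46 with shBEX2-2. The gene was 4.72-fold higher in knockdown cells, a difference of 2.24 ± 0.24 (log2, SE, 4 against 4 arrays, limma adjusted p = 0.0012). The E2F1 probe, at chr20:32263989-32264048 of hg19, was printed on 10 spots of each array, and the SD of the log2 intensity between those spots was 0.050 to 0.098. These spots repeat the reading of 1 sample and say nothing of the spread between cultures. The mean intensity of the E2F1 spots was 287 to 421 on the control arrays and 754 to 1762 on the knockdown arrays.

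E2F2 had levels of -1.72, -1.60, -1.82 and -1.26 in control cells, 0.04 and 0.05 with shBEX2-1, and 1.43 on both arrays of shBEX2-2. It was 5.06-fold higher after knockdown, a difference of 2.34 ± 0.35 (adjusted p = 0.0042, limma). The arrays of shBEX2-1 lay 0.010 apart and those of shBEX2-2 0.003 apart, while the lines differed by 1.38. The spread of E2F2 in knockdown cells was thus mostly between the lines. E2F3 had levels of 1.22, 1.30, 0.88 and 1.39 in control cells and of 1.50, 1.39, 1.63 and 1.57 in knockdown cells. Here the lowest knockdown array lay just below the highest control array, shNontarget replicate 2. The difference of E2F3 was 0.32 ± 0.14 and did not pass the test (adjusted p = 0.17, limma). A dimmer E2F3 probe gave a difference of 0.34, again with overlapping groups.

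The repressors did not move as a class. E2F8 had levels of -2.86, -2.89, -2.93 and -2.34 in control cells, -1.54 and -1.55 with shBEX2-1, and -0.45 and -0.49 with shBEX2-2. It rose 3.36-fold, by 1.75 ± 0.30 (adjusted p = 0.0069, limma), although the shNontarget arrays of this gene were 0.59 apart. E2F4 had levels of -1.19, -1.28, -0.92 and -0.83 in control cells and of -1.55, -1.22, -1.42 and -1.20 in knockdown cells. The knockdown arrays overlapped the shControl arrays and lay below the shNontarget arrays, and the difference was -0.29 ± 0.15 (adjusted p = 0.26, limma).

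E2F7, the partner of E2F8 in heterodimers, gave different readings from its probes. The brighter probe, at chr12:77415520-77415579 of hg19, had levels of 2.49, 2.51, 2.33 and 3.08 in control cells and of 2.76, 2.68, 2.80 and 2.81 in knockdown cells. The high value of shNontarget replicate 2 put 1 control array above every knockdown array, and the difference was 0.16 ± 0.17 (adjusted p = 0.59, limma). Without that array E2F7 passed the test, with a difference of 0.32 (adjusted p = 0.043), as it did with shControl alone as control, with 0.26 (adjusted p = 0.033, limma). The dimmer probe, at chr12:77417576-77417635 and also well above background on all arrays, had levels of -1.43, -1.84, -2.57 and -1.35 in control cells. Its levels in knockdown cells were -0.79, -1.04, -0.88 and -1.06, all above the control arrays, with a mean difference of 0.85. With the mean of both probes the difference of E2F7 was 0.51 and did not pass (adjusted p = 0.13, limma).

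The pocket protein genes differed from each other. RBL1 had levels of -2.69, -2.89, -2.64 and -2.58 in control cells, -1.16 and -1.26 with shBEX2-1, and -0.91 and -0.97 with shBEX2-2. It rose 3.08-fold, by 1.62 ± 0.14, and had the smallest adjusted p of the 10 regulators (0.00069, limma). A dimmer probe for another RBL1 transcript was well above background on 5 arrays and was 1.53 higher after knockdown. RBL2 had levels of -0.58, -0.68, -0.80 and -0.16 in control cells and of -0.76, -0.79, -0.76 and -0.83 in knockdown cells. Its knockdown arrays spanned less than 0.1 and lay within the range of the control arrays but for 1 array, and the difference was -0.23 ± 0.15 (adjusted p = 0.37, limma). Relative to the mean of the control arrays, RBL1 minus RBL2 was 1.86 in knockdown cells, with an SD of 0.17. The control arrays had an SD of 0.24 (n = 4 arrays each).

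MYBL2 and FOXM1 rose in both knockdown lines. MYBL2 had levels of -2.23, -2.28, -2.03 and -2.02 in control cells, -0.74 and -0.44 with shBEX2-1, and -0.07 and 0.06 with shBEX2-2. It was 3.59-fold higher, a difference of 1.84 ± 0.19 (adjusted p = 0.0011, limma). FOXM1 had levels of 0.63, 0.58, 1.44 and 0.97 in control cells, 1.99 and 2.17 with shBEX2-1, and 2.46 and 2.53 with shBEX2-2. The control arrays of FOXM1 were the most spread of the 10 genes (SD 0.40), with both shNontarget arrays above both shControl arrays. The difference was 1.38 ± 0.21, or 2.60-fold (adjusted p = 0.0045, limma).

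The choice of control vector decided part of the count. Against shControl alone 7 regulators passed, E2F7 being added, where 33.5% of all genes passed. Against shNontarget alone 3 passed, namely E2F1 (1.97, adjusted p = 0.036), RBL1 (1.53, adjusted p = 0.029) and MYBL2 (1.73, adjusted p = 0.038). E2F2, E2F8 and FOXM1 then had differences of 2.28, 1.63 and 1.08 and adjusted p of 0.071, 0.099 and 0.070 (limma), and 1.67% of all genes passed.

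To show the promoters of genes that moved and of genes that did not, the bases before the start sites in RefSeq (GRCh38.p14) were searched for E2F sites. Of the 10 regulators, 8 had an entry, and E2F8 and FOXM1 are not in the promoter table. The E2F sites searched were TTTCCCGC, TTTCGCGC, TTTGCCGC and TTTGGCGC on both strands, in the 250 bases before and 50 bases after each start. At least 1 of them was in 4 of the 8 genes, namely E2F1, E2F2, E2F3 and RBL1. The share was 3.99% of all 27305 genes in the table and 5.40% of its 15843 protein-coding genes. The 100 bases before the first listed start of 6 regulators are shown, 5′ to 3′ on the strand of the gene, with E2F sites and the CHR letters TTTGAA or TTCGAA in capitals.
E2F1, chr20:33686386-33686485, minus strand: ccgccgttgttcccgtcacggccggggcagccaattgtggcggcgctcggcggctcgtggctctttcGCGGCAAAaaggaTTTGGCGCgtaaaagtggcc
E2F2, chr1:23531234-23531333, minus strand: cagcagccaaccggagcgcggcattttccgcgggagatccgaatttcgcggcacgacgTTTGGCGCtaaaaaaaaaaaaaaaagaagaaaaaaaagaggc
RBL1, chr20:37095998-37096097, minus strand: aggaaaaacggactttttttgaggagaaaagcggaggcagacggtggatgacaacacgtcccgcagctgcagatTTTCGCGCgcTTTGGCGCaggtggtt
MYBL2, chr20:43667014-43667113, plus strand: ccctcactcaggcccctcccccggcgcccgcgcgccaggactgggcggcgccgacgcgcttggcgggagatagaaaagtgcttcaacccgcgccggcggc
E2F3, chr6:20401779-20401878, plus strand: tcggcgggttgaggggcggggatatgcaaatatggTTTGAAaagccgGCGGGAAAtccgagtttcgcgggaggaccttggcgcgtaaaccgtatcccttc
RBL2, chr16:53434371-53434470, plus strand: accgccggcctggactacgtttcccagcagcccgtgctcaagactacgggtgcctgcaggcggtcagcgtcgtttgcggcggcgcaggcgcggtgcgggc

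E2F1 and RBL1 each held 2 of the E2F sites within 33 bases of the start, and E2F2 held 1 that began 42 bases before it. E2F3, whose level did not pass the test, held 1 that began 53 bases before its first listed start. MYBL2, which rose, held none of these letters in the window, and neither did E2F4, E2F7 and RBL2. Only exact matches to these letters were counted, so that a promoter without one may still hold an E2F site of other letters. A match of letters is a description of the window and was not tested for binding.

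Both knockdown lines showed the same 6 regulators above control, each against the mean of both control vectors. In all genes tested, 7.03% passed with shBEX2-1 and 9.67% with shBEX2-2. The 2 comparisons share their control arrays. The differences with shBEX2-1 ran from 1.17 ± 0.16 for FOXM1 to 1.87 ± 0.11 for E2F1. Those with shBEX2-2 ran from 1.59 ± 0.16 for FOXM1 to 3.03 ± 0.18 for E2F2 (log2, SE, 2 arrays against 4). Against shNontarget alone, 4 regulators passed with shBEX2-1, where 3.15% of all genes passed. E2F8 and FOXM1 were lost there (adjusted p of 0.057 and 0.067, limma). With shBEX2-2, 6 regulators and 6.18% of all genes passed against shNontarget alone. No gene of the whole array, and so no regulator, passed with shBEX2-1 when either shControl array or either shBEX2-1 array was left out, or with shBEX2-2 when either of its own arrays was left out.

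Most of the regulators read higher in shBEX2-2 than in shBEX2-1 cells. For 8 of the 10 genes both shBEX2-2 arrays lay above both shBEX2-1 arrays, the exceptions being E2F4 and RBL2, and 26.7% of all genes had that order. The largest gaps between the lines were 1.38 ± 0.20 for E2F2, 1.08 ± 0.22 for E2F8 and 0.75 ± 0.13 for E2F1. None of the 10 passed the test between the lines (adjusted p of 0.12 for E2F2, 0.14 for E2F1 and 0.19 for E2F8, limma), though 4 had an unadjusted p under 0.05. Over all genes 0.00978% passed, which were INHBB, higher with shBEX2-2, and RSAD2, lower with it, both named after their values were seen. Both calls were lost with the replicate number as a block and with normexp, where no gene passed. BEX2 itself did not read lower in the line with the larger differences. Its level was 0.61 ± 0.42 higher with shBEX2-2 than with shBEX2-1 (adjusted p = 0.97), and its difference from control was -1.94 ± 0.37 with shBEX2-1 (adjusted p = 0.034) and -1.32 ± 0.37 with shBEX2-2 (adjusted p = 0.081, limma).

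**Figure D2:**
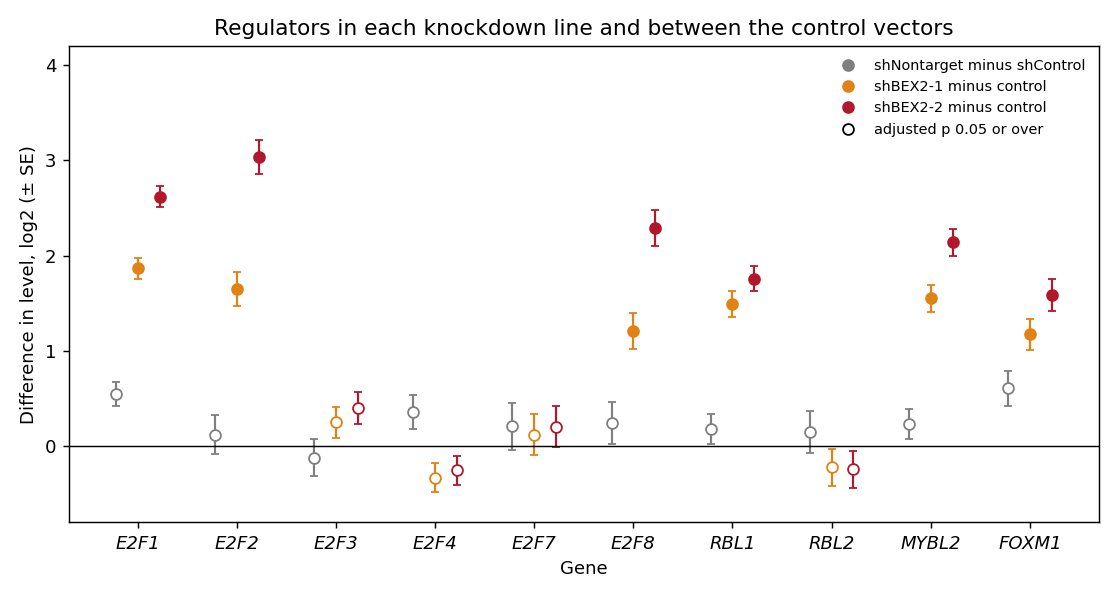
Difference in level of each regulator on the log2 scale, with its standard error from the model of 4 vectors, for shBEX2-1 and shBEX2-2 against the mean of both control vectors and for shNontarget against shControl. Filled points passed limma at an adjusted p under 0.05. The differences of the 6 called genes run from 1.17 to 3.03, and those between the control vectors from -0.12 to 0.60.

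The control vectors were also compared with each other, as the background of the measurement. No regulator and 0% of all genes passed between shNontarget and shControl in limma, although 1567 genes, 2 regulators among them, had an unadjusted p under 0.05. The count of 0 does not show that the vectors were alike, since the distance between the shNontarget arrays enters the spread of this test. It changed when either shNontarget array was left out, as given at the end, and its cause was not tested. The regulators with an unadjusted p under 0.05 were E2F1, 0.55 ± 0.13 higher with shNontarget (adjusted p = 0.40), and FOXM1, 0.60 ± 0.19 higher (adjusted p = 0.52). These are to be set beside differences with shBEX2-1 of 1.87 for E2F1 and 1.17 for FOXM1, taken from the mean of both control vectors. From shNontarget alone the differences with shBEX2-1 were 1.59 for E2F1 (adjusted p = 0.012) and 0.87 for FOXM1 (adjusted p = 0.067, limma). By mean level, all 6 called regulators had the order shControl, shNontarget, shBEX2-1, shBEX2-2. The neighbours shControl and shNontarget overlapped for E2F2 and E2F8 and did not for E2F1, RBL1, MYBL2 and FOXM1.

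Set against each other as classes, the activators were further above their control level than the repressors on every knockdown array. Relative to the mean of the control arrays, the mean of E2F1, E2F2 and E2F3 was 1.28 and 1.23 with shBEX2-1 and 2.03 and 2.00 with shBEX2-2. The mean of E2F4, E2F7 and E2F8 was 0.29 and 0.37 with shBEX2-1 and 0.71 and 0.77 with shBEX2-2. Activators minus repressors came to 1.10 ± 0.21 in knockdown cells (SD, n = 4 arrays), and the control arrays ranged from -0.11 to 0.07. No knockdown array came near that range, the lowest being 0.85. E2F7 entered the repressor mean by its brighter probe alone, which differed by 0.16 between the groups. Its dimmer probe, for which the groups did not overlap, differed by 0.85 and is not in this score. Neither class was uniform, since E2F3, like E2F4 and E2F7, did not pass the test and E2F8 rose with E2F1 and E2F2. With E2F4 alone as the repressor the difference was 1.93. The mean of E2F7 and E2F8 without E2F4 lay nearer to the activators, at 0.69 and 0.64 with shBEX2-1 and 1.25 and 1.24 with shBEX2-2.

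**Figure D3:**
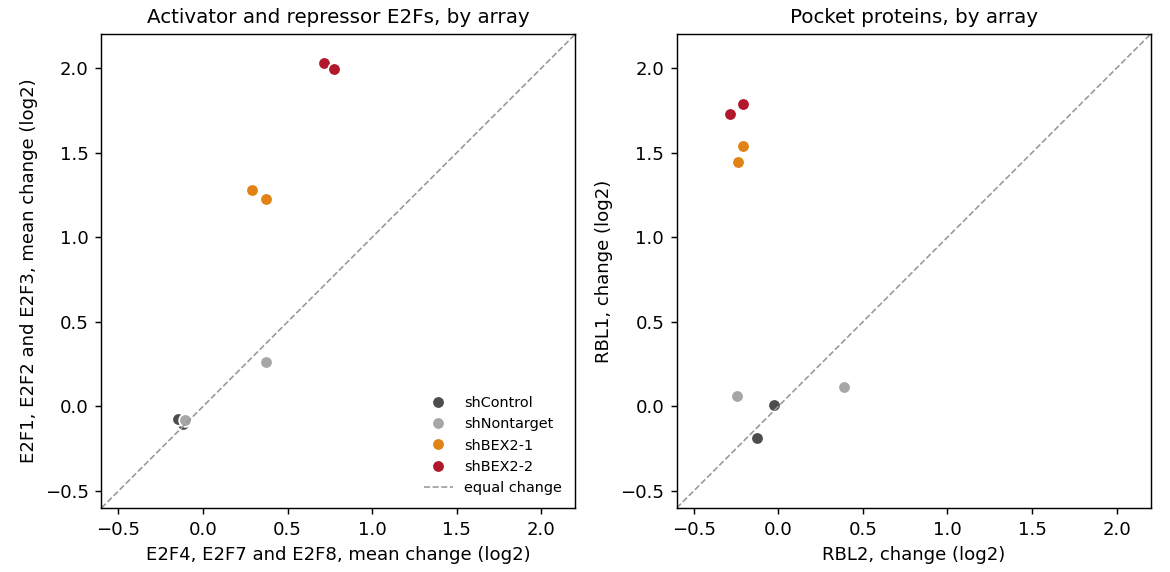
Left, the mean change of the activators E2F1, E2F2 and E2F3 against that of the repressors E2F4, E2F7 and E2F8, and right, RBL1 against RBL2, on each array in log2 units relative to the mean of the control arrays. Points on the dashed line changed equally. The knockdown arrays lie above the line by 0.85 to 1.32 on the left and by 1.68 to 2.01 on the right.

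The genes whose products work with these regulators showed smaller differences. Of 8 partners of the E2Fs and members of the MuvB core, 4 rose, none fell and 4 did not pass, with a median difference of 0.47. Over all genes tested 12.9% passed, and 6.68% passed with a rise, which are the shares to set beside this list and those below. The DP subunits TFDP1 and TFDP2, which pair with E2Fs to bind DNA, rose by 0.57 ± 0.12 (adjusted p = 0.016) and 0.87 ± 0.23 (adjusted p = 0.040). LIN9, a scaffold of MuvB, rose by 0.91 ± 0.14 (adjusted p = 0.0044), and LIN54, its DNA-binding subunit, by 0.74 ± 0.18 (adjusted p = 0.029, limma). LIN52, LIN37 and the histone chaperone RBBP4 had differences of 0.36, -0.17 and 0.33, and the repressor E2F6 had -0.06. The count of 4 depended on single arrays, and leaving out 1 array at a time gave 1 to 4. It was 1 with scaling by the median, 2 by the methods' t-test after Benjamini-Hochberg adjustment, and 0 by rank product or with shNontarget alone as control.

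Among 12 cyclins, kinases and inhibitors of G1, 11 were tested, of which 6 rose, 1 fell and 4 did not pass. Cyclin D2 (CCND2), the member not tested, was well above background on none of the arrays. The largest rises were those of CCNE2, a cyclin E gene that is itself an E2F target, and of CDKN2D, an inhibitor of CDK4 and CDK6. CCNE2 went from a mean of -2.47 (SD 0.11) to -0.67 (SD 0.15), a difference of 1.80 ± 0.13 (SE, adjusted p = 0.00062, limma). CDKN2D rose by 1.61 ± 0.21 (SE, adjusted p = 0.0023, limma). CDKN1A, the inhibitor p21, fell by 0.74 on the log2 scale, with an SE of 0.21 (adjusted p = 0.045, limma). The second lowest value was that of CDK4, at -0.15 ± 0.20. The median of the list was 0.98. With shNontarget alone as control 3 genes of this list passed, and 4 passed by rank product, where 1.67% and 4.26% of all genes passed.

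Most of the target genes of the regulators rose. Of 20 E2F targets of G1/S, 18 rose, none fell and the list's median difference was 1.44. The largest rises were those of GINS2, a subunit of the replicative helicase, by 1.98 ± 0.26 (adjusted p = 0.0027), and of thymidine kinase TK1, by 1.95 ± 0.20 (adjusted p = 0.0010, limma). The 2 that did not pass, named after their values were seen, were MCM7 (0.58) and SLBP (0.60). Of 20 targets of MYBL2 and FOXM1 in G2 and mitosis, 17 rose, none fell and the median was 1.38. UBE2C, a ubiquitin-conjugating enzyme of mitotic exit, rose by 1.70 ± 0.25 (adjusted p = 0.0038), and the kinesin KIF20A by 1.66 ± 0.19 (adjusted p = 0.0015, limma). Those that did not pass were CDC25B, AURKB and TOP2A, with differences of 0.67, 0.90 and 0.81. Between the control vectors, the G2 and mitosis genes read higher with shNontarget for all 20 (median 0.71) and the G1/S genes for 17 of 20 (median 0.23), and no gene of either list was called. Against shNontarget alone, 8 of the G1/S list and 2 of the G2 and mitosis list passed, where 1.67% of all genes passed. By rank product 14 and 13 passed, beside 4.26% of all genes. By the methods' t-test after Benjamini-Hochberg adjustment 18 and 13 passed, beside 10.6% of all genes. With 1 array left out, 18 to 19 of the G1/S list and 12 to 20 of the G2 and mitosis list passed.

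**Figure D4:**
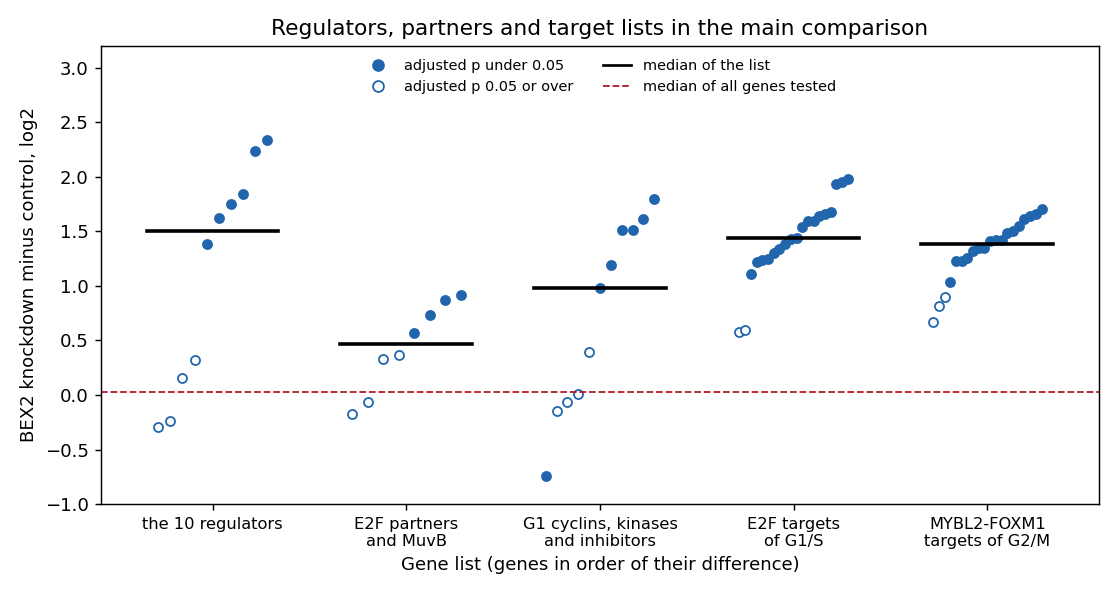
Difference between knockdown and control cells on the log2 scale for each gene of the 5 lists, in order within each list. Filled points passed limma at an adjusted p under 0.05, black bars are list medians and the dashed line is the median of all genes tested. The medians of the regulators and of both target lists lie between 1.38 and 1.50, and those of the partners and of the G1 genes at 0.47 and 0.98.

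The promoters of the target lists were searched for the same letters. An E2F site was in 11 of the 18 G1/S targets that the table holds and in 2 of the 17 G2 and mitosis targets. The share was 3.99% of all genes and 5.40% of protein-coding genes. The CHR letters are the element through which MuvB complexes bind G2 and mitosis genes. They were in 12 of those 17 targets and in 2 of the 18 G1/S targets. Their share was 19.5% of all genes and 17.5% of protein-coding genes.

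The genes most like 3 of the regulators across the 8 arrays were found by Pearson's r over all genes tested. For FOXM1 they were KIF11, WDR34 and FAM83D (each r = 0.998), for MYBL2 they were CENPO (0.997), GINS4 (0.995) and MCM2 (0.995), and for RBL2 they were ZNF513 (0.995), SENP7 (0.990) and ACAD11 (0.987). The 8 arrays are 4 vectors in 2 groups, so that r mostly restates the difference between groups for FOXM1 and MYBL2. RBL2 stood at -0.16 on shNontarget replicate 2 and between -0.83 and -0.58 on all other arrays. Its r therefore mostly restates that 1 array, of the vector whose arrays stood apart.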

How the data were processed

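HuCCT1 RNA was measured on 8 Agilent arrays of 1 slide. Per the labels and file headers, the authors labelled RNA with Cy3 and read the slide (design 028004) with Feature Extraction 10.7.3.1. The deposited processed intensity is background-subtracted and not scaled between arrays. Control spots and non-uniform spots were left out, deposited intensities were taken to log2, each array's 75th percentile was subtracted, and the spots of a probe were averaged. A probe had to be well above background on 4 or more arrays, and the brightest one by the mean of 8 arrays stood for each gene. Precision is limited by the number of arrays, since spots and probes do not add replicates.

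Knockdown and control arrays (4 against 4) were compared with limma 3.58.1 (lmFit, eBayes with trend) in R 4.3.3 and statmod 1.5.0, with Benjamini-Hochberg adjustment over 20450 genes. A second model with 4 vectors gave the lines and control vectors. Genes with an adjusted p under 0.05 were called. Rank product is the method of the study and was run with 16 pairs and 100 permutations as an alternative. The fit was tested on simulated data. Figures were drawn with matplotlib 3.10.9 and tables made with pandas 2.3.3 and numpy 2.4.6 in Python 3.11.15. Probe positions are those of hg19 in the files, and promoters are RefSeq's of GRCh38.p14.

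The 10 regulators and the gene lists were chosen with earlier results of these data known. Named are BEX2, the 10 regulators, the partner list, the 2 largest rises and falls of each other pathway list, and the 3 genes most like FOXM1, MYBL2 and RBL2. Alternatives were quantile and median scaling, normexp with an offset of 50, the deposited series table, filters on dim probes, the mean of probes, blocks, each control vector alone, other tests and each array left out.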

Additional observations from a re-analysis of the deposited data

Results flagged for a closer look

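Among 20 sets of 4 arrays (10 regulators in control and in knockdown cells), 1 array lay far from the rest. E2F8 on shNontarget replicate 2 was at -2.34, where the other control arrays were at -2.93 to -2.86, and this gap was 0.885 of the range of the control arrays. Chance alone marks about 1 in 20 such sets.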

How the results depend on the processing

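In the comparison of knockdown with control cells, none of the 10 regulators changed direction under the 23 alternatives, and the same 6 passed under quantile and median scaling, normexp, the deposited series table, both filters, the mean of probes, rank product and the vector as a random block. E2F1, RBL1 and MYBL2 passed under all 23, and E2F2, E2F8 and FOXM1 under 22. The random block called 3413 genes, more than the 2646 as reported, so that it was not a stricter test here. With shNontarget alone as control 3 of the 10 passed. The count of all genes called was 6842 with shControl alone, 341 with shNontarget alone, 872 by rank product, 5422 by the methods' t-test without adjustment and 2646 as reported, and 1247 to 4722 with 1 array left out. By that t-test E2F3 also passed.

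With 1 array left out, 6 to 7 regulators passed in the main comparison and activators minus repressors ranged from 1.02 to 1.18. For the lines, where a vector then has 1 array that is assumed to vary like the others, the counts ranged from 0 to 8 for shBEX2-1, 0 to 8 for shBEX2-2, 0 to 6 for shNontarget against shControl and 0 to 5 between the lines. The counts of 0 for shBEX2-1 came without either shControl array or either shBEX2-1 array, and those for shBEX2-2 without either of its own arrays. The counts of 8 came without either shNontarget array, where 51.5% to 54.5% of all genes passed. The count of 5 between the lines came without the same arrays, where 14.4% and 14.7% passed, and the 6 and 3 between the control vectors with 45.2% and 46.3%. The counts of regulators thus moved together with those of all genes. Without shNontarget replicate 1, E2F7 with shBEX2-1 changed direction, and its difference ranged from -0.0689 to 0.308 over the arrays left out. With E2F4 alone as repressor, activators minus repressors was 1.93. The cause was not tested.

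The replicate number as a block left 6 regulators called in the main comparison and in each line, and called 2457 genes. Replicate differences of 2 vectors correlated across genes with r from -0.063 to 0.259, so the numbers were not taken to pair the arrays.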
